A study of Mus musculus with 2 samples.

Results

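Macrophages made up the largest share of the annotated leukocytes sorted from subcutaneous MC38 tumours, and 4938 of them are described here. They are the cells of sequencing library 2 that the deposited annotation calls macrophages, outside author clusters 12, 25, 39 and 45. Library 2 held 10476 annotated cells, of 19210 in the series, and 5725 macrophages, of which 787 lay in the 4 clusters left out. The 4938 cells fall into 20 of the 58 author clusters. The study sorted CD45+ cells from MC38 tumours, a mouse colon carcinoma line, grown in mice that carry human Fcγ receptors. Each mouse received 2000000 tumour cells in the flank. Anti-mouse GITR antibodies with different human IgG1 Fc parts, or PBS, were injected 2 times, 3 days apart, at 100 µg, and the series' design places the sort at 4 days after treatment. The 4 treatments are Untreated (PBS), N297A (Agonist, Fc-null), GA-aFuc (Agonist, Fc-enhanced) and GITR/Syn GA-aFuc (Non-agonist, Fc-enhanced), with 3 mice each. Library 2 holds 2 GA-aFuc mice, 2 GITR/Syn GA-aFuc mice, 1 Untreated mouse and 1 N297A mouse, so that neither of the last 2 treatments has a spread of its own in any expression value below. The labels used here give neither age nor sex of the mice.

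GITR is a costimulatory receptor of T cells, most abundant on regulatory T cells, and antibodies against it can both trigger the receptor and bring Fcγ receptor-bearing cells to the T cell. Macrophages carry activating and inhibitory Fcγ receptors, take up antibody-coated cells, and are among the main cells that read the Fc part of an antibody in a tumour. Tumour macrophages arise largely from recruited monocytes and take up different states: interferon-exposed, antigen-presenting, cycling, hypoxic, or alternatively activated, the last marked by arginase and the mannose receptor and classically induced by IL-4 and IL-13.

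The kept macrophages had a median of 14541 UMIs per cell, against 9025 in monocytes. Between 704 and 934 of them came from each mouse, 40.8% to 51.3% of its annotated cells, and their summed counts ran from 9166396 to 14490180 UMIs. Median mitochondrial shares were 1.91% to 2.31%. Xist, the X-inactivation transcript, was at 609 counts per 1000000 UMIs of a mouse's macrophages (CPM) in GA-aFuc replicate 2 and at 609 CPM in GITR/Syn GA-aFuc replicate 2, and at 1.16 to 1.79 CPM in the other 4 mice, so the mice differed in sex within treatments. Both mice with high Xist had received an Fc-enhanced antibody, and the Untreated and N297A mice were both low in it. GA-aFuc replicate 3 stood apart in several lists: its summed monocyte markers reached 752 CPM, against 161 to 299 CPM in the other 5 mice. The summed markers of T cells (7.34 to 11.3 CPM), NK cells (7.52 to 12.1 CPM), neutrophils (27.4 to 49.0 CPM) and fibroblasts (at most 18.6 CPM) were low in every mouse. Those of B cells summed to 164 to 223 CPM with 1 of 5 genes at 0, and 2 of 5 epithelial tumour markers were at 0 in all mice. The 2 libraries shared 34 cell barcodes. The labels do not say how doublets were treated before annotation. No caller was applied to the annotated cells.

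The label held against its markers. C1qa, a chain of complement C1q, was at 4930 CPM in the kept macrophages, 1868 CPM in monocytes and 102 CPM in NK cells. It gave at least 1 UMI in 98.8% of the macrophages and in 50.7% of NK cells, which should lack it. The part of free RNA and of doublets in that share was not tested. Adgre1, which encodes F4/80, was at 405 CPM against 185 CPM in monocytes, Ms4a7 at 1154 against 472 CPM, Trem2, a lipid receptor, at 299 against 184 CPM, and Mrc1, the mannose receptor, at 139 against 75.8 CPM. Apoe, the lipid carrier, was at 6927 CPM against 5265 CPM. Ly6c2, which marks inflammatory monocytes, was at 63.6 CPM in the macrophages and 2122 CPM in the monocytes.

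The 20 clusters differed most in interferon genes, MHC class II, the cell cycle and hypoxia. These differences are a description, because the authors' clusters were drawn from the same genes, and levels are means over the 6 mice of library 2. Cluster 3 (361 cells) held the type I interferon response: the 21 genes of that list summed to 12166 CPM, against 2261 to 4993 CPM in the other clusters. Its leading gene was Rsad2, the antiviral enzyme viperin, at 1697 CPM against 150 CPM in the other macrophages. Cluster 6 (360 cells) held the interferon-γ response, with the 20 genes of that list at 11425 CPM. Cxcl9, a T cell chemoattractant, was at 2392 CPM there and 539 CPM elsewhere, and Socs1, a brake on cytokine signalling, at 295 CPM and 63.5 CPM.

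MHC class II, which presents antigen to CD4 T cells, divided the clusters as well. The 11 genes of the list summed to 34116 CPM in cluster 14 (261 cells), with no mouse below 30081 CPM. Clusters 61, 28 and 2 followed with 30789, 25153 and 24889 CPM. Cluster 2 (409 cells) was led by Il1r2, the decoy receptor for interleukin-1, at 160 CPM against 54.7 CPM. At the low end stood cluster 5 (398 cells) with 4772 CPM, led by Psd3, the chemokine gene Cxcl14 and the scavenger receptor gene Stab1, at 173 CPM against 104 CPM. Cluster 30 (175 cells) joined a low MHC class II sum, 6177 CPM, to the highest summed macrophage markers, 30750 CPM. Its leading genes included Pf4, a platelet-type chemokine, at 926 CPM against 253 CPM, and Mrc1, at 390 CPM against 128 CPM.

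Clusters 9 and 11 carried the glycolysis and hypoxia genes. The 23 genes of that list summed to 15584 CPM in cluster 9 (333 cells) and 10780 CPM in cluster 11 (274 cells), against 3863 to 6336 CPM in the other 18. Cluster 9 also led in iron handling, with 44792 CPM, and in Mmp12, the macrophage elastase, at 853 CPM against 14.0 CPM elsewhere. Gpnmb, a glycoprotein of lipid-laden macrophages, was at 184 CPM against 3.53 CPM, and Hilpda, a hypoxia-induced lipid droplet gene, at 642 CPM against 23.2 CPM. This cluster departed from the others in quality as well as content: its median UMI count was 9171, its median mitochondrial share 1.06%, its summed macrophage markers the lowest at 14723 CPM and its summed monocyte markers the highest at 1001 CPM. Arg1, arginase-1, which degrades arginine, was highest in these same clusters. Its mean was 1760 CPM in cluster 9 and 1052 CPM in cluster 11, against 6.81 to 621 CPM in the remainder. The cluster 11 mean includes the GA-aFuc mice, which lay far above the other mice there, with values given below. The human FCGR1A transcript, encoding the high-affinity Fcγ receptor, was lowest in clusters 9 and 11. It stood at 45.3 and 97.6 CPM there, against 185 to 346 CPM elsewhere. The Fc receptor signalling list was highest in cluster 15 (279 cells), at 10020 CPM.

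The cycling cells lay in clusters 13, 17, 24 and 56, whose 22 cell cycle genes summed to 5684, 5224, 3372 and 6723 CPM. Cluster 13 was led by histone genes, cluster 17 by the histone H1f5 and Rrm2, which makes deoxynucleotides, cluster 24 by the mitotic gene Cdc20 and cluster 56 by Cenpf. Cluster 4 (378 cells) carried replication genes such as Hells, Uhrf1 and Mcm7, at 196 CPM against 39.5 CPM, with a cell cycle sum of 2598 CPM. Cluster 10 (317 cells) had the highest sum of inflammatory cytokines and chemokines, 9435 CPM, with Ccl3 at 526 CPM against 160 CPM and Tnf at 125 CPM against 53.6 CPM. Cluster 34 (153 cells) had the highest dissociation and heat shock sum, 11184 CPM, together with the highest lipid-associated sum, 19044 CPM. Its alternative activation sum of 3482 CPM ran from 641 to 15615 CPM over mice, the highest in GA-aFuc replicate 3. Cluster 51 (80 cells) was led by Ccl5 and by Vcam1, an adhesion molecule, and cluster 15 by Sox5 and Cd300e. Clusters 53 and 61 held 37 and 42 cells, with as few as 2 and 3 in a mouse, and are not taken further.

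**Figure D1:**
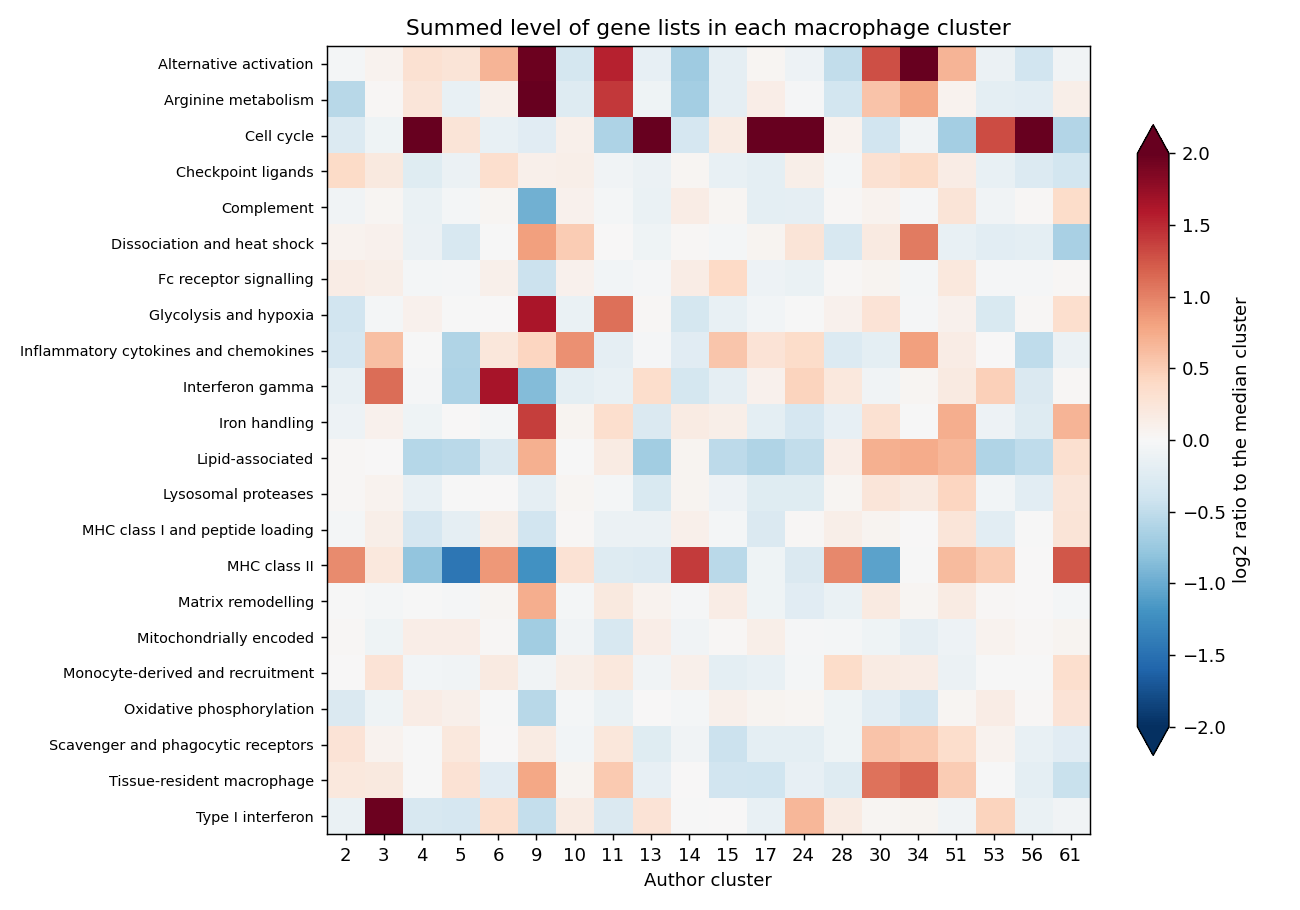
Summed level of 22 gene lists (rows) in the 20 author clusters (columns), coloured by the log2 ratio to the median cluster of the row, with the scale ending at 2 in either direction. Cluster 3 stands out in type I interferon genes (12166 CPM), cluster 6 in interferon-γ genes (11425 CPM), cluster 9 in iron handling and glycolysis genes, and clusters 14 and 5 hold the highest and lowest MHC class II sums (34116 and 4772 CPM).

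The cluster makeup of the macrophages could be compared over 12 mice, since the annotation covers both libraries. No cluster share passed the test between treatments. Of the 20 clusters, 11 were tested with a two-sided exact permutation test that moved treatments within libraries (32400 arrangements), and 0 passed after Benjamini-Hochberg adjustment. The lowest p-values in the exact permutation test were 0.0817 for cluster 56, 0.0925 for cluster 24 and 0.111 for cluster 15, each with an adjusted p of 0.407. The cluster 15 share was 6.69% ± 0.777 (SD, n = 3) in Untreated, 5.85% ± 1.58 in N297A, 4.64% ± 1.12 in GA-aFuc and 4.56% ± 0.295 in GITR/Syn GA-aFuc. With edgeR on the cell counts, cluster 15 had an unadjusted p of 0.0136 and an adjusted p of 0.149. The other 9 clusters are given as shares only, because at least 1 of their 10 leading genes was itself called between treatments. Their mean shares per treatment lay between 0.642% and 8.12%.

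Cluster 9 was the most uneven. Under GA-aFuc it held 7.54%, 4.05% and 21.0% of a mouse's macrophages, under GITR/Syn GA-aFuc 9.66%, 1.69% and 6.64%, under N297A 6.19%, 4.37% and 7.53%, and in Untreated mice 3.62%, 7.18% and 2.20%. The treatments overlapped, and the exact permutation p over the 12 mice was 0.554. The highest value was that of GA-aFuc replicate 3, with 148 of its 704 macrophages, and the results below whose call changed without cluster 9 are given both ways.

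**Figure D2:**
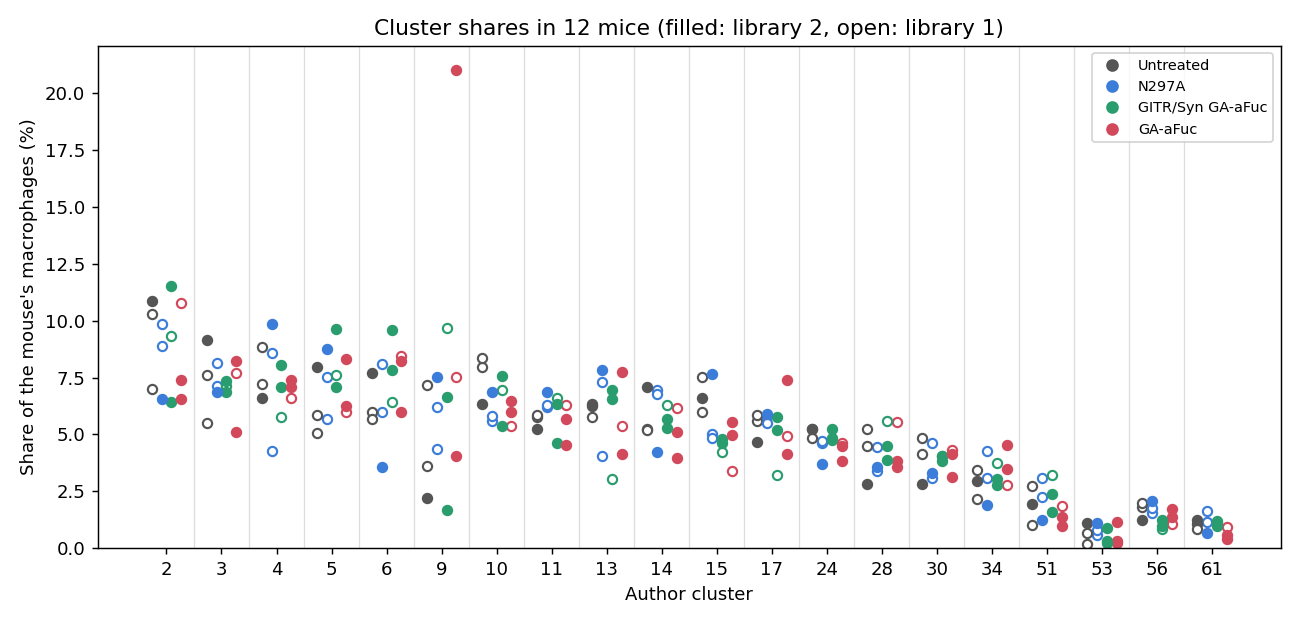
Share of each mouse's kept macrophages (vertical axis, %) in each author cluster (horizontal axis), 1 point per mouse and coloured by treatment, filled for library 2 and open for library 1. No tested cluster passes between treatments, and the single point far above the rest is cluster 9 in GA-aFuc replicate 3 (21.0%).

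Expression was compared over the 6 mice of library 2, with the counts of each mouse's macrophages summed. One gene passed in the comparisons of single treatments over all macrophages: Flt1, which encodes VEGF receptor 1. Its level was 43.2 and 41.5 CPM in the GA-aFuc mice, 10.3 and 10.4 CPM in the GITR/Syn GA-aFuc mice, 13.7 CPM in the Untreated mouse and 8.42 CPM in the N297A mouse. Both GA-aFuc mice stood above the 4 others, which lay close together. The log2 difference of GITR/Syn GA-aFuc minus GA-aFuc was -2.03 ± 0.15 (SE, 2 against 2 mice; adjusted p = 0.0128 by edgeR's quasi-likelihood test with Benjamini-Hochberg adjustment). That call was lost without GITR/Syn GA-aFuc replicate 2 (adjusted p = 0.445 by edgeR) or replicate 3 (0.172), and held in the other 14 of 16 settings, DESeq2 among them (3.93e-09). GA-aFuc was above N297A by 2.26 ± 0.21 (adjusted p = 0.0552, edgeR, 2 against 1 mice; 0.0316 without cluster 9) and above Untreated by 1.56 ± 0.19 (adjusted p = 0.540, edgeR). A Flt1 UMI was found in 23.5% and 21.6% of macrophages of the GA-aFuc mice and in 6.58% to 12.96% of those of the others. In NK and CD8 T cells of the same mice Flt1 was at 0.553 to 3.36 CPM, with a UMI in 0.873% of cells.

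Over all 14031 genes tested, that is 1 call in GITR/Syn GA-aFuc minus GA-aFuc, or 0.00713%. edgeR called 0 genes, or 0%, in GA-aFuc minus Untreated, GA-aFuc minus N297A, GITR/Syn GA-aFuc minus Untreated, N297A minus Untreated and both Fc-enhanced treatments minus the other 2. At an unadjusted p under 0.05 these 5 comparisons held 420, 492, 206, 337 and 522 genes, and DESeq2 called 6, 21, 1, 10 and 6. The fit had 2 residual degrees of freedom. In simulated counts for GA-aFuc minus Untreated on 14031 genes, 99 of 100 genes changed 8-fold were recovered and 26 of 100 changed 2-fold. The simulated spread between mice followed expression level alone, so genes with a larger spread of their own were not represented. In the measured counts Arg1, at a log2 difference of 3.16, did not pass. Counts of calls also turned on single mice: in GA-aFuc minus Untreated edgeR called 330 genes without GA-aFuc replicate 2 and 28 without replicate 3, each in a fit with 1 residual degree of freedom. Genes below are given by their values in each mouse, with calls by edgeR unless DESeq2 is named.

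The largest departures in GA-aFuc macrophages were in alternative activation genes, a list that was chosen with earlier results on these mice known and is no independent evidence of its direction. In GA-aFuc minus Untreated, 16 of 16 members tested (18 in the list) had a positive log2 difference, with a median of 2.56 against 0.01 over all genes. 11 of the 16 had an unadjusted p under 0.05, where 2.22% of all genes did so in the higher direction and 0.777% in the lower. edgeR called 0 of them after adjustment, and DESeq2 called Mgl2 (adjusted p = 0.00557) and Pdcd1lg2 (0.02504) among them. In GITR/Syn GA-aFuc minus GA-aFuc, 0 of 16 were positive, with a median of -1.56, and 9 had an unadjusted p under 0.05, against 1.74% of all genes lower and 0.449% higher. The 2 comparisons share the GA-aFuc mice. The filter let a gene be tested on its level in a single mouse. Retnla and Cd163 entered through GA-aFuc replicate 3 alone, so their direction in comparisons with GA-aFuc was fixed beforehand and is no support. The N297A minus Untreated median was 0.02. Much of the size came from GA-aFuc replicate 3: without it, 13 of 14 members tested were positive, with a median of 0.98. Without cluster 9 the median was 2.32, with 16 of 16 positive.

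Arg1 was at 334 and 1134 CPM in the GA-aFuc mice, 86.9 and 102 CPM in the GITR/Syn GA-aFuc mice, 78.9 CPM in Untreated and 72.3 CPM in N297A. Both GA-aFuc mice were above the 4 others, and differed from each other by more than those 4 did. The log2 differences were 3.16 ± 0.68 for GA-aFuc minus Untreated (adjusted p = 0.999, edgeR) and -2.96 ± 0.51 for GITR/Syn GA-aFuc minus GA-aFuc (adjusted p = 0.677, edgeR). With cluster 9 left out, Arg1 passed in GITR/Syn GA-aFuc minus GA-aFuc (-2.91, adjusted p = 0.0113, edgeR) and in GA-aFuc minus N297A (3.33, adjusted p = 0.0361, edgeR), an alternative added after the values were seen. An Arg1 UMI was found in 38.7% and 45.6% of GA-aFuc macrophages and in 20.3% to 28.4% of those of the other 4 mice. In NK and CD8 T cells, which should lack it, the share was 6.34% to 9.59%, at a median of 8488 UMIs per cell, and the level was 7.13 to 11.1 CPM in 5 mice and 140 CPM in GA-aFuc replicate 3.

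Of 3 other genes on arginine, Slc7a2 followed the order of Arg1. Slc7a2, a transporter that brings arginine into macrophages, was at 49.3 and 114 CPM in the GA-aFuc mice, 26.2 and 14.6 CPM in the GITR/Syn GA-aFuc mice, 10.3 CPM in Untreated and 6.89 CPM in N297A. GA-aFuc minus Untreated was 2.93 ± 0.56 and did not pass (adjusted p = 0.999, edgeR). GA-aFuc minus N297A passed in DESeq2 (3.49, adjusted p = 0.0215) and, without cluster 9, in edgeR (3.19, adjusted p = 0.0361). In NK and CD8 T cells Slc7a2 was at 27.8 CPM in GA-aFuc replicate 3 and at 0.356 to 2.80 CPM in the other mice. The part of free RNA and of doublets in its macrophage values was not tested. Nos2, which makes nitric oxide from arginine, was at 13.5 and 61.1 CPM in GA-aFuc and at 8.22 to 13.3 CPM in the other 4 mice, so that replicate 2 lay near the others. Odc1, which starts polyamine synthesis from the product of arginase, was at 112 to 128 CPM in all 6 mice, with no order by treatment.

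Among the secreted and surface genes of the list, Ccl24, an eosinophil chemoattractant, was at 24.8 and 271 CPM in the GA-aFuc mice and at 0.716 to 2.59 CPM in the other 4. Pdcd1lg2 encodes PD-L2, a ligand of PD-1, and was at 25.02 and 21.3 CPM in GA-aFuc, 7.84 and 3.66 CPM in GITR/Syn GA-aFuc, 4.49 CPM in Untreated and 1.97 CPM in N297A. Both genes separated the GA-aFuc mice from the others, and DESeq2 called both in GITR/Syn GA-aFuc minus GA-aFuc (adjusted p = 0.0263 for Ccl24 and 0.00137 for Pdcd1lg2). Pdcd1lg2 was higher in NK and CD8 T cells, at 71.3 to 100 CPM, and the part of free RNA in the macrophage value was not tested. Ccl24 in NK and CD8 T cells was at 32.8 CPM in GA-aFuc replicate 3 and at 0 to 3.56 CPM in the other mice. The part of free RNA and of doublets in its macrophage values was not tested either. Several further members were high in GA-aFuc replicate 3 alone: Chil3 (286 CPM against 3.85 to 4.34 CPM), Retnla (18.5 against at most 0.38 CPM), Cd163, a haemoglobin scavenger receptor (7.85 against at most 0.179 CPM) and F13a1 (112 against 5.45 to 34.0 CPM). Chil3 and F13a1 are also monocyte markers, and that mouse had the highest summed monocyte markers and the highest cluster 9 share. Whether those account for its values was not tested.

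Mrc1 levels differed between the mice with and without an Fc-enhanced antibody. Mrc1 was at 185 and 250 CPM in the GA-aFuc mice, 199 and 96.8 CPM in the GITR/Syn GA-aFuc mice, 52.7 CPM in Untreated and 49.2 CPM in N297A. The 4 mice given an Fc-enhanced antibody were above the 2 others. The mice with high Xist, replicate 2 of GA-aFuc and of GITR/Syn GA-aFuc, were both among these 4. Sex and Fc part were therefore partly mixed in this comparison. For both Fc-enhanced treatments minus N297A and Untreated the log2 difference was 1.74 ± 0.29 (4 against 2 mice; adjusted p = 0.539, edgeR). An Mrc1 UMI was present in 41.6% to 65.6% of macrophages of the 4 Fc-enhanced mice, and in 29.7% and 24.9% of those of Untreated and N297A. In NK and CD8 T cells the share was 1.41% to 3.57%.

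Mgl2, a galactose lectin of alternatively activated macrophages, was at 12.7 and 22.6 CPM in GA-aFuc, 8.60 and 22.6 CPM in GITR/Syn GA-aFuc, 1.76 CPM in Untreated and 2.42 CPM in N297A. The groups did not overlap, and the Fc-enhanced difference was 2.94 ± 0.51 (adjusted p = 0.613, edgeR). Mgl2 and Clec10a are close paralogs, so their split is uncertain. Il1a, the alarmin interleukin-1α, was at 13.6 and 17.7 CPM in GA-aFuc, 18.5 and 14.1 CPM in GITR/Syn GA-aFuc, 3.77 CPM in Untreated and 7.70 CPM in N297A (1.49 ± 0.21, adjusted p = 0.539, edgeR). Ccnd3, which encodes cyclin D3, ran the other way, at 44.0, 55.5, 31.96 and 46.3 CPM in the 4 Fc-enhanced mice and 91.3 and 87.6 CPM in Untreated and N297A (-1.08 ± 0.20, adjusted p = 0.748, edgeR). edgeR called none of these genes in the sum over all macrophages. DESeq2 called Mgl2 (adjusted p = 8.04e-07), Il1a (0.00611) and Ccnd3 (0.00611) in this comparison, and not Mrc1 (0.0879). At an unadjusted p under 0.05 the comparison held 2.92% of all genes in the higher direction and 0.798% in the lower. At that level 8 of 16 alternative activation genes were higher, and the median of the 16 was 1.74. Retnla and Cd163 are among the 16. Their direction was fixed beforehand here too, because GA-aFuc replicate 3 is in this comparison, and they are no support.

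Scavenger and phagocytic receptors had a median of 0.51 in both Fc-enhanced treatments minus the others, with 14 of 15 members positive. 6 of the 15 were higher at an unadjusted p under 0.05, against 2.92% of all genes, and edgeR called none. Within clusters the list's median was above 0 in 14 of 14. Msr1, the scavenger receptor A, was at 184 and 180 CPM in GA-aFuc, 201 and 156 CPM in GITR/Syn GA-aFuc, 117 CPM in Untreated and 118 CPM in N297A, so the 4 Fc-enhanced mice lay above the 2 others. Mertk and Axl, which recognise dying cells, were at 115 to 191 CPM and 182 to 313 CPM in the 6 mice, without separation. Gas6, their bridging ligand, was at 2.73 CPM in the Untreated mouse and at 6.98 to 10.1 CPM in the other 5, N297A among them. Of the human Fcγ receptor transcripts themselves, edgeR called none in the sum over all macrophages. FCGR2B, the inhibitory receptor, was at 301 and 475 CPM in GA-aFuc and 286 and 420 CPM in GITR/Syn GA-aFuc. In Untreated it was at 406 CPM and in N297A at 519 CPM. The lowest FCGR2B values were those of the mice with high Xist, replicate 2 of GA-aFuc and of GITR/Syn GA-aFuc. FCGR1A was at 200 and 154 CPM in GA-aFuc, 251 and 231 CPM in GITR/Syn GA-aFuc, 306 CPM in Untreated and 238 CPM in N297A, and GA-aFuc minus Untreated was -0.85 ± 0.22 (adjusted p = 0.999, edgeR). FCGR3B, whose reads cannot be told apart with certainty from the near-identical FCGR3A, was at 3121 to 4160 CPM with overlapping treatments. Tnfrsf18, which encodes GITR, the target of the antibodies, was at 1.23 to 2.57 CPM in the macrophages.

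In the N297A mouse, interferon-γ and MHC class II genes were at low levels. Of the interferon-γ list, 15 of 19 members tested had an unadjusted p under 0.05 in the lower direction against Untreated, with a median of -1.19, where 1.55% of all genes were lower and 0.855% higher at that p. Of the MHC class II list 8 of 11 were lower at that p, with a median of -1.23. Without cluster 9 the medians were -1.15 and -1.19. edgeR called none of them and DESeq2 called 10 genes, all lower: Spint1, Irf1, Socs1, H2-Ab1, H2-Aa, H2-Eb1, Gm4951, Iigp1, Cd74 and Cd274. The comparison is of 1 mouse with 1 mouse, and a difference between these animals and one between their treatments cannot be told apart.

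Iigp1, an interferon-induced GTPase, was at 234 CPM in the N297A mouse, 681 CPM in the Untreated mouse, 656 and 389 CPM in GA-aFuc and 585 and 518 CPM in GITR/Syn GA-aFuc. H2-Aa, an MHC class II chain, was at 1330 CPM in N297A, 3328 CPM in Untreated, 2185 and 1744 CPM in GA-aFuc and 3047 and 1802 CPM in GITR/Syn GA-aFuc. Cd274, which encodes PD-L1, was at 75.5 CPM in N297A and 179 to 248 CPM in the other 5 mice. Irf1, a transcription factor of the interferon-γ response, was at 135 CPM in N297A and 230 to 333 CPM in the others. For each of these 4 genes N297A was the lowest mouse, but not for every member of the lists. Cxcl9 was at 298 CPM in GA-aFuc replicate 3 and 305 CPM in N297A, Cxcl10 at 341 and 472 CPM, and H2-DMb1 at 239 and 245 CPM. The summed interferon-γ and MHC class II lists were lowest in N297A (2560 and 8606 CPM). They were highest in the Untreated mouse (5829 and 20656 CPM), with which N297A was compared. In GA-aFuc the interferon-γ median was -0.38 and the MHC class II median -0.74, with 1 of 19 and 5 of 11 members lower at an unadjusted p under 0.05, against 0.777% of all genes; without GA-aFuc replicate 3 these counts were 1 and 0. The type I interferon list had 0 of 21 members positive in GA-aFuc minus Untreated, with a median of -0.28 against 0.0075 over all genes. The Untreated mouse had the highest sum of that list, 4419 CPM, against 3245 to 4070 CPM in the other 5 mice. The lower level was thus not particular to GA-aFuc.

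**Figure D3:**
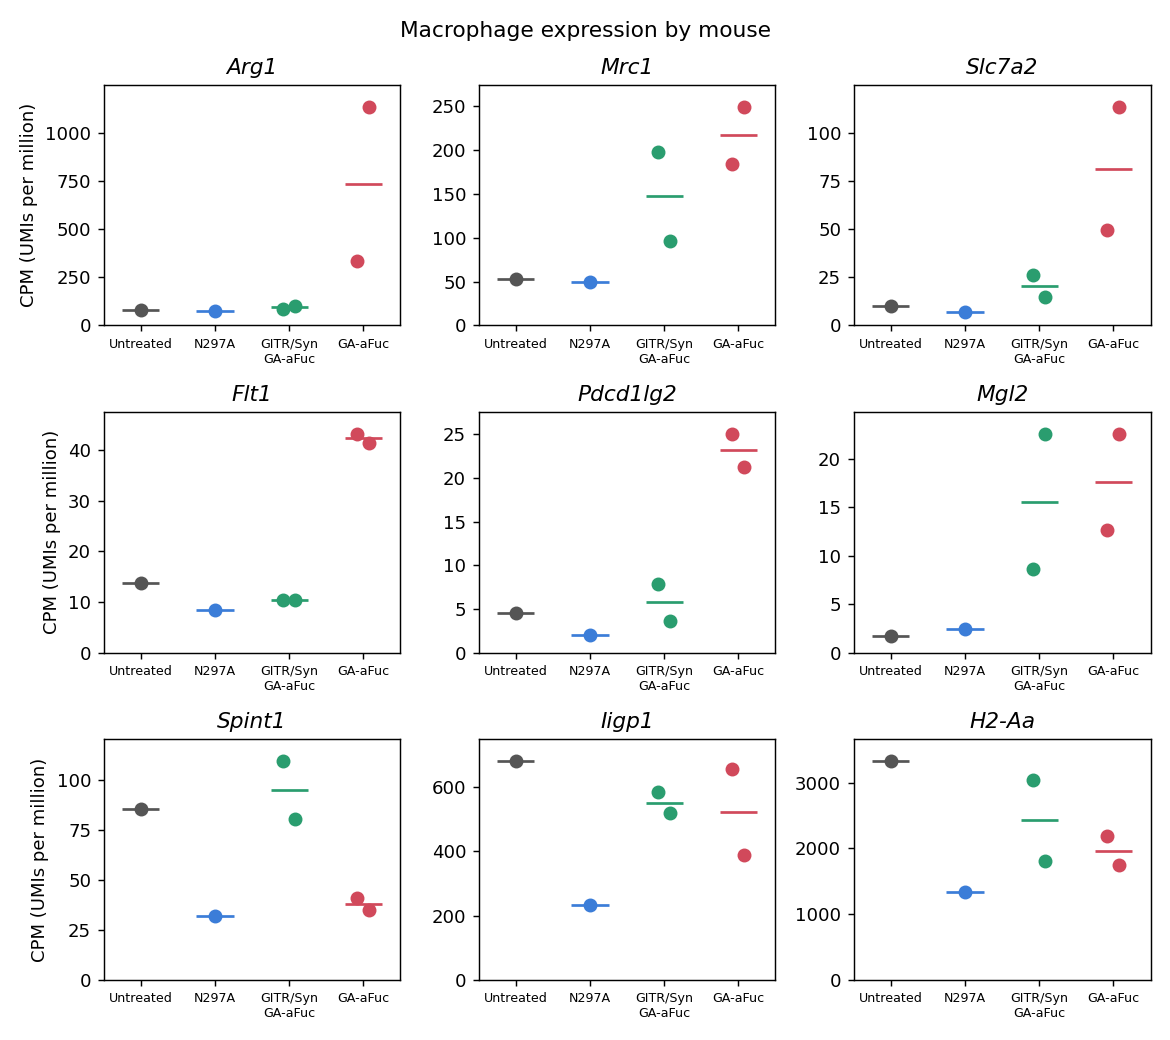
CPM (vertical axes) of 9 genes in the kept macrophages of each mouse of library 2 by treatment, with points for mice and bars for treatment means. Flt1 separates both GA-aFuc mice (43.2 and 41.5 CPM) from the 4 others, Mrc1 and Mgl2 are higher in the 4 Fc-enhanced mice, Spint1 is lower in the 3 mice given an agonist, and Iigp1 and H2-Aa are lowest in the N297A mouse.

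Spint1 encodes an inhibitor of membrane serine proteases. It was at 41.0 and 34.8 CPM in GA-aFuc, 31.7 CPM in N297A, 109 and 80.2 CPM in GITR/Syn GA-aFuc and 85.4 CPM in Untreated. The 3 mice given an agonist lay below the 3 others. The log2 difference was -1.23 ± 0.22 for GA-aFuc minus Untreated (adjusted p = 0.999 by edgeR, 0.0312 by DESeq2) and 1.31 ± 0.19 for GITR/Syn GA-aFuc minus GA-aFuc (0.541 by edgeR, 6.04e-05 by DESeq2). A comparison of both agonists with GITR/Syn GA-aFuc and Untreated was added because of these Spint1 values, so its p for Spint1 is no test and is not given. That comparison had 0 calls of 14031 genes, 0%, with 349 at an unadjusted p under 0.05 and 2 calls by DESeq2. Spint1 was among the 2 DESeq2 calls, which for it is no test either.

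Glycolysis and hypoxia genes had 22 of 22 members positive in GA-aFuc minus Untreated, with a median of 0.34, and 7 higher at an unadjusted p under 0.05, against 2.22% of all genes. The N297A median was also 0.34, with 0 at that p. Ero1a, a hypoxia-responsive oxidase, was at 64.5 and 297.2 CPM in GA-aFuc and at 42.3 to 79.8 CPM in the others, so replicate 3 alone was high. Without cluster 9 the list's median was 0.19 with 20 of 21 members tested positive, and without GA-aFuc replicate 3 it was 0.21 with 1 member at an unadjusted p under 0.05. Matrix remodelling genes had a median of 0.73 with 7 of 18 higher at that p. Without that mouse the median was 0.21 with 3 of 17 higher, where 307 of all 13790 genes were at that p in either direction. Cell cycle (-0.01), Fc receptor signalling (-0.13) and oxidative phosphorylation (-0.13) lists had medians close to that of all genes.

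**Figure D4:**
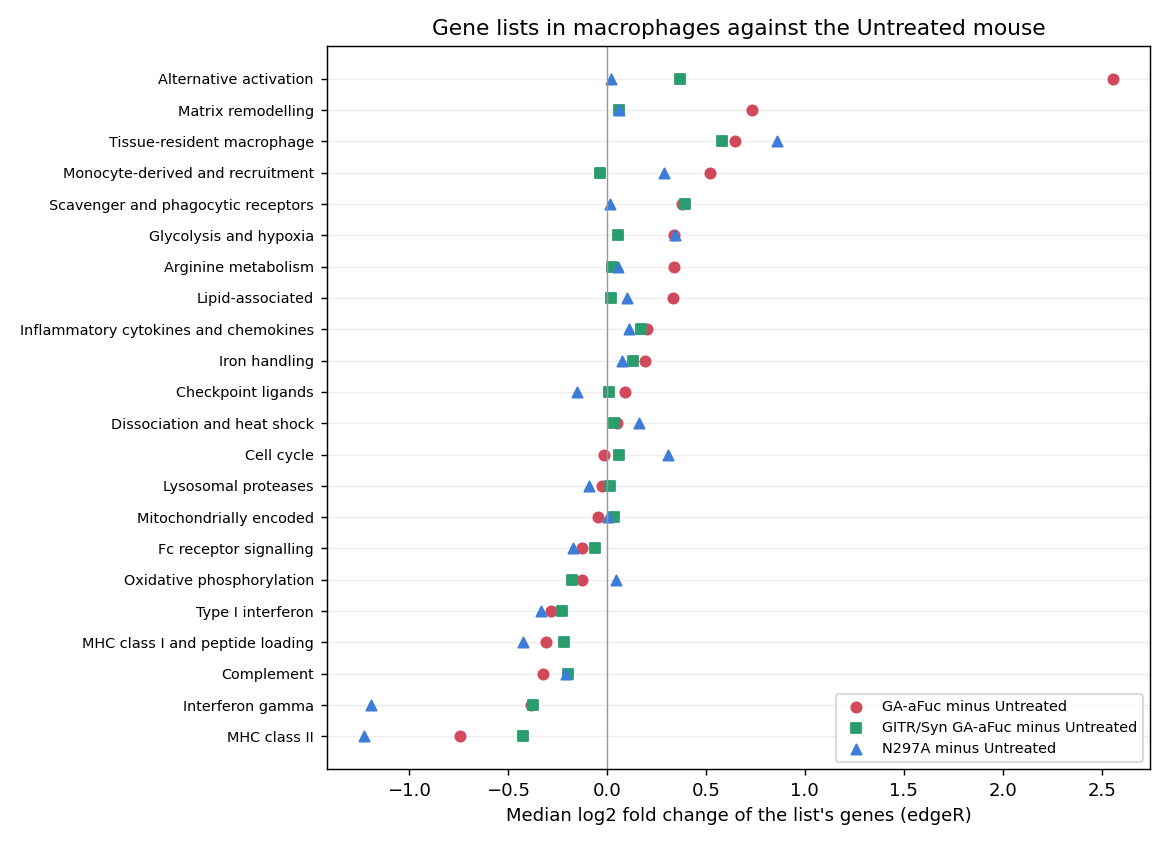
Median edgeR log2 fold change of 22 gene lists in the kept macrophages (horizontal axis), for GA-aFuc, GITR/Syn GA-aFuc and N297A, each against the 1 Untreated mouse that they share. Alternative activation stands at 2.56 in GA-aFuc and 0.02 in N297A, while MHC class II and interferon-γ genes are lowest in N297A (-1.23 and -1.19). The alternative activation median includes Retnla and Cd163, whose direction in GA-aFuc was fixed by the filter.

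Differences in the sum over all macrophages can come from the cluster makeup or from within clusters, so 14 clusters with at least 20 cells in every mouse were fitted one by one. Clusters 9, 34, 51, 53, 56 and 61 had fewer. In GA-aFuc minus Untreated, 21 of 116486 gene-by-cluster tests passed in edgeR, or 0.018%. They covered 11 genes in 8 clusters, 19 higher and 2 lower. In both Fc-enhanced treatments minus the others 23 passed, or 0.0197%, covering 15 genes in 10 clusters, 17 higher and 6 lower. DESeq2 called 4 and 5. Leaving out single mice gave 22 to 294 calls in the first comparison, the most without GA-aFuc replicate 2, and 130 to 799 in the second, the most without GITR/Syn GA-aFuc replicate 3. The clusters come from the same 6 mice and are not independent of each other.

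Arg1 was above Untreated in GA-aFuc in 13 of 13 clusters tested, by 0.39 to 4.90 on the log2 scale, and rose past the threshold in 7 of them: clusters 3, 4, 6, 10, 11, 17 and 30. In the interferon-γ cluster 6 it was at 398 and 425 CPM in the GA-aFuc mice, 31.99 and 32.1 CPM in GITR/Syn GA-aFuc, 29.7 CPM in Untreated and 41.7 CPM in N297A. There the 2 GA-aFuc mice were close to each other, unlike in the sum, and the difference was 3.68 ± 0.38 (adjusted p = 1.5e-05, edgeR). In the cycling cluster 17 it was at 383 and 262 CPM in GA-aFuc and 10.5 to 47.3 CPM in the other 4 mice (4.90 ± 0.46, adjusted p = 7.62e-05, edgeR). In the hypoxic cluster 11 it was at 1479 and 3754 CPM in GA-aFuc and 198 to 345 CPM in the others (3.32 ± 0.53, adjusted p = 0.0313, edgeR). Arg1 thus rose in clusters with low and with high levels of it. The part of free RNA and of doublets in the clusters with low levels was not tested. DESeq2 called 3 of the 13, leaving out single mice gave 7 to 9, and without GA-aFuc replicate 2 the difference was positive in 11 of 13.

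**Figure D5:**
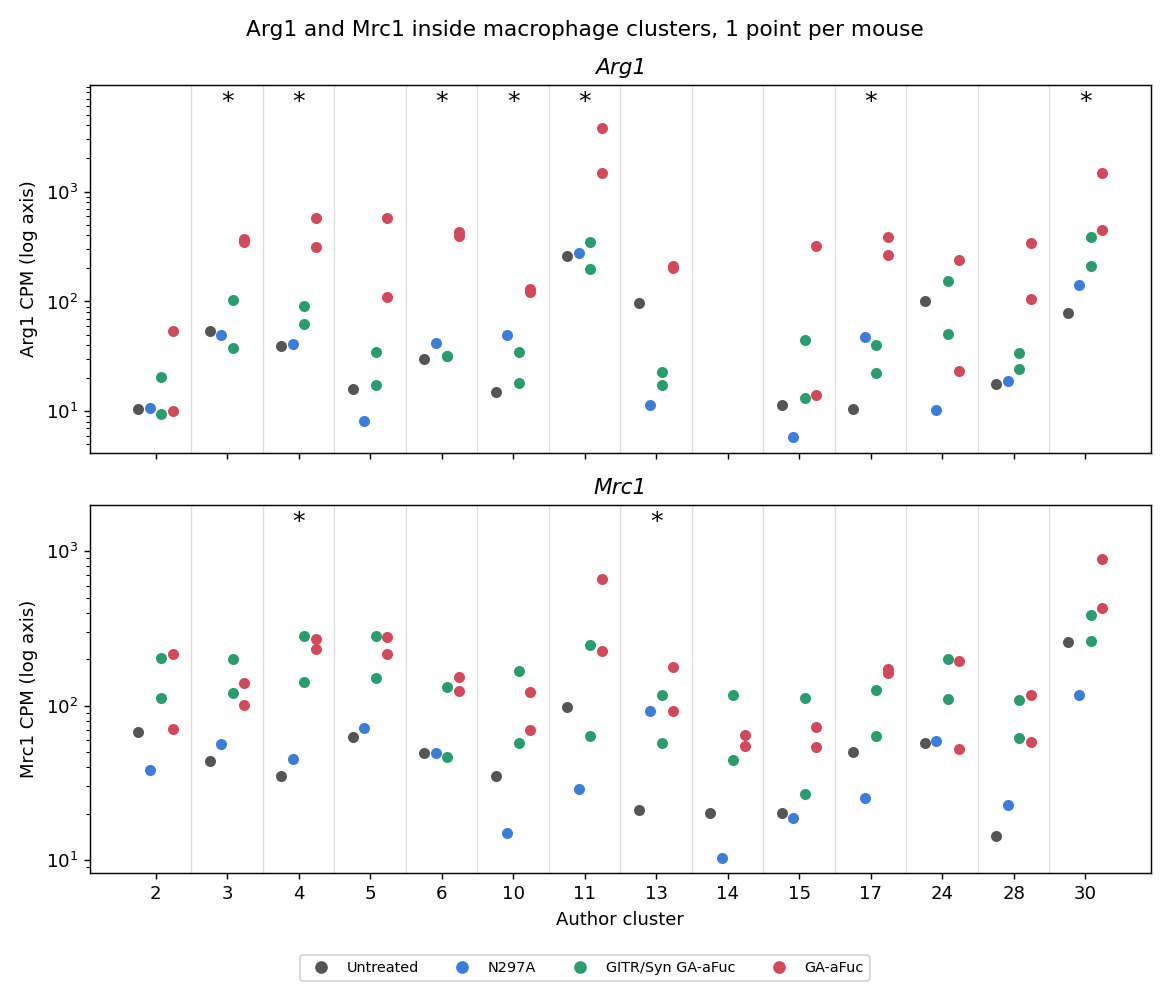
CPM on log axes of Arg1 (top) and Mrc1 (bottom) in each mouse of library 2, by author cluster and coloured by treatment, with a star where GA-aFuc minus Untreated passed in edgeR. Arg1 was not tested in cluster 14, and in cluster 6 the GA-aFuc points (398 and 425 CPM) lie far above the others, while Mrc1 is high in both Fc-enhanced treatments in cluster 4 (143 to 282 CPM).

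Mrc1 was above Untreated in GA-aFuc in 14 of 14 clusters, by 1.06 to 2.76, and rose past the threshold in clusters 4 and 13. In both Fc-enhanced treatments minus the others it rose in clusters 4, 5 and 17 and was positive in all 14. In the replication cluster 4 it was at 233 and 269 CPM in GA-aFuc, 282 and 143 CPM in GITR/Syn GA-aFuc, 35.2 CPM in Untreated and 45.5 CPM in N297A. The 4 Fc-enhanced mice lay above the others there (2.43 ± 0.27, adjusted p = 3.06e-05, edgeR). For that comparison DESeq2 called 3 clusters as well, and leaving out single mice gave 9 to 12: 9 without GA-aFuc replicate 2, 12 without GA-aFuc replicate 3, and 9 and 10 without GITR/Syn GA-aFuc replicates 2 and 3.

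The other genes that rose in GA-aFuc within clusters came mostly from clusters 6, 11 and 30. Ccl24 rose in clusters 6 and 11, where it was at 222 and 925 CPM in GA-aFuc and 1.16 to 21.4 CPM in the other mice (8.22 ± 1.27, adjusted p = 0.0313, edgeR). Slc7a2 rose in clusters 3 and 6, in both comparisons; in cluster 6 it was at 84.4 and 52.0 CPM in GA-aFuc, 40.0 and 18.9 CPM in GITR/Syn GA-aFuc, 4.57 CPM in Untreated and 2.61 CPM in N297A. Pdcd1lg2 and Fn1, which encodes fibronectin, rose in cluster 11, Cd36, a fatty acid receptor, in cluster 30, and Cxcl2, a neutrophil chemoattractant, in clusters 11 and 30. Cxcl2 was as high in N297A (696 CPM in cluster 30) as in GA-aFuc (163 and 529 CPM), with Untreated at 17.6 CPM. The 2 genes that fell were interferon-γ targets: Cxcl11 in cluster 6 and Cxcl10 in cluster 30, where it was at 370 and 136 CPM in GA-aFuc, 251 and 259 CPM in GITR/Syn GA-aFuc, 843 CPM in Untreated and 197 CPM in N297A.

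In both Fc-enhanced treatments minus the others, Mmp13, a collagenase, rose in cluster 6, from 6.86 and 5.22 CPM in Untreated and N297A to 46.2 to 66.3 CPM in the 4 Fc-enhanced mice (3.19 ± 0.44, adjusted p = 0.00221, edgeR). Ccnd3 fell in clusters 2 and 30 and was negative in 14 of 14 clusters. In cluster 2 it was at 50.4, 80.5, 36.2 and 69.8 CPM in the Fc-enhanced mice and 134 and 147 CPM in Untreated and N297A. Ly6c2 fell in clusters 2 and 14, and in cluster 14 it was at 17.4 to 33.6 CPM in the Fc-enhanced mice and 92.8 and 124 CPM in the others (-2.09 ± 0.26, adjusted p = 0.000167, edgeR). Ly6c2 has a near-identical neighbour, Ly6c1, so its count is uncertain. Napsa, an aspartic protease, fell in cluster 2 and Lipg, a lipase, in cluster 13. Single clusters also held rises of Psd3, Plxdc2, Cacnb2, Nrg1, Tnfaip2, Vcam1 and Egr1.

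Monocytes, the most similar class, were used to ask whether the response was particular to macrophages. A model with a term for each mouse tested the difference in response between the kept macrophages and 2984 monocytes outside author cluster 42. edgeR called 0 of 13630 genes, 0%, for GA-aFuc minus Untreated and for both Fc-enhanced treatments minus the others. At an unadjusted p under 0.05 there were 435 and 628, and limma-voom called 0 in each. For Mrc1, GA-aFuc minus Untreated was 1.98 ± 0.41 in macrophages and 3.46 ± 0.49 in monocytes, a difference of -1.43 ± 0.24 (adjusted p = 0.701, edgeR). For Arg1 the values were 3.16 ± 0.68 and 3.41 ± 0.36, a difference of -0.42 ± 0.27 (adjusted p = 1, edgeR). Cdh1, which encodes E-cadherin, stood at 1.26 ± 0.42 and 3.49 ± 0.44, a difference of -2.21 ± 0.38 (adjusted p = 0.701, edgeR). These 3 estimates were larger in monocytes. Others were larger in macrophages: Mgl2 stood at 3.24 ± 0.73 against 2.38 ± 0.32, Il1a at 1.98 ± 0.30 against 1.43 ± 0.24, Slc7a2 at 2.93 ± 0.56 against 2.54 ± 0.45 and Flt1 at 1.56 ± 0.19 against 1.29 ± 0.22. All 7 passed in monocytes in edgeR, and none of their differences between the classes passed. The Arg1 difference was 0.0044 without GA-aFuc replicate 2.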

How the data were processed

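Per the labels' protocols, hashed cells of several mice were pooled on the 10x Genomics 3′ platform. The matrix was written by Cell Ranger 9.0.0, per the file headers, and the submitters' processing notes name GRCh38 and GRCm39. The deposited values are raw UMI counts per gene and cell. Human Fcγ receptor transcripts are counted beside mouse genes. Cell types and clusters are the authors'. Filters on cells and treatment of doublets are not given in the sources used here. Mice were told apart by runs of rising barcode in the annotation, and in library 2 the dominant hashtag agreed for 10476 of 10476 cells. The library 1 matrix was not analysed here, so its mice enter the share tests only. Members, gene lists and tests were chosen with earlier results of these data known.

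Counts of the kept macrophages were summed per mouse (9166396 to 14490180 UMIs), and CPM are per 1000000 of those UMIs. edgeR 4.0.16 (TMM factors, filterByExpr with a minimum count of 10, glmQLFit and glmQLFTest, 1 fit over 6 mice with treatment alone) gave log2 fold changes, and an SE is the log2 fold change divided by the root of F. Called means Benjamini-Hochberg adjusted p under 0.05 over all genes of a contrast. The fit was tested on simulated data. DESeq2 1.42.0, limma 3.58.1 and RLE size factors were alternatives. Others were no or a stricter filter (minimum count 50), equal cells per mouse (704), the same cells per cluster from each mouse (520 cells each), Xist as covariate, all macrophages, and leaving out each mouse or cluster 9. Named genes were the 5 higher and 5 lower of smallest p per contrast where fewer than 5 passed, up to 4 per list, the markers and receptors, and up to 6 leading genes per cluster (at least 100 CPM). Ccl24, Iigp1, Irf1, Odc1, Retnla, Cd163, Mertk, Axl, Cdh1 and the genes called within clusters were named after their values were seen.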

Additional observations from a re-analysis of the deposited data

How the results depend on the processing

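In the order GA-aFuc minus Untreated, GA-aFuc minus N297A, GITR/Syn GA-aFuc minus GA-aFuc, GITR/Syn GA-aFuc minus Untreated, N297A minus Untreated, both Fc-enhanced minus the others, and both agonists minus the others, edgeR called 0, 0, 1, 0, 0, 0 and 0 genes. DESeq2 called 6, 21, 5, 1, 10, 6 and 2. Without the filter on low counts edgeR called 164, 159, 171, 21, 45, 139 and 111. With Xist as covariate it called 243, 157, 130, 21, 46, 150 and 103, in a fit with 1 residual degree of freedom. With equal cells per mouse GA-aFuc minus N297A had 1 call. With the same cells per cluster the calls were 4 in GA-aFuc minus N297A, 6 in GITR/Syn GA-aFuc minus GA-aFuc, 1 in the Fc-enhanced and 1 in the agonist comparison. Without cluster 9 they were 4 in GA-aFuc minus N297A, 3 in GITR/Syn GA-aFuc minus GA-aFuc and 1 in the agonist comparison. In both of these settings the agonist call was Spint1, which was also among the DESeq2 calls. The agonist comparison was added because of the Spint1 values, so its calls of Spint1 are no test. Leaving out single mice gave 0 to 330, 0 to 240, 0 to 318, 0 to 29, 0 to 51, 0 to 196 and 0 to 247 calls, the highest without GA-aFuc replicate 2 except in N297A minus Untreated (without GA-aFuc replicate 3); a fit without 1 mouse of a pair has 1 residual degree of freedom. Within clusters DESeq2 called 4 (GA-aFuc minus Untreated) and 5 (Fc-enhanced), and leaving out single mice gave 22 to 294 and 130 to 799, the highest without GA-aFuc replicate 2 and without GITR/Syn GA-aFuc replicate 3. The macrophage against monocyte comparison ran from 0 to 15 and from 1 to 21, the highest without GA-aFuc replicate 2 and without GA-aFuc replicate 3. No share passed in any setting. Without GA-aFuc replicate 3, Spp1 in GA-aFuc minus Untreated turned from 1.504 to -0.43 (2.31 without replicate 2), and without GA-aFuc replicate 2 the Arg1 macrophage minus monocyte difference went from -0.42 to 0.0044 (-0.85 without replicate 3). The cause was not tested for either. Over all named genes and shares, 626 values kept their direction and side of the threshold, 177 crossed to passing, 82 stopped passing and 2 changed sign. Untreated and N297A had 1 mouse each, so comparisons with them take their spread from the other treatments.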
